A study of Homo sapiens with 30 samples.

Results

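In 5 breast cancer cell lines, 119 microarray probes had lower ratios of BMP4 over vehicle at 3 to 24 h than at 30 min. The values at 3 to 24 h were averaged in the deposited series matrix, and the 119 probes are described here. BMP4, bone morphogenetic protein 4, is a secreted ligand of the transforming growth factor beta superfamily that signals through receptor kinases and SMAD proteins. The lines, ZR-75-30, SK-BR-3 and MDA-MB-361 beside the HCC lines HCC1419 and HCC1954, received recombinant human BMP4 or vehicle and were collected after 30 min and 1, 3, 6, 12 and 24 h. Values of the 5 lines are listed alphabetically, from HCC1419 to ZR-75-30, where no line is named. Each of the 30 two-colour arrays compared BMP4-treated (Cy5) with vehicle-treated cells (Cy3) of 1 line at 1 time point. The cells of replicate cultures were pooled before extraction and no dyes were swapped, so each line gave 1 array per time point and the lines served as replicates of a time point.

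The members were chosen by their measured values. In the deposited series matrix, the mean ratio at 3, 6, 12 and 24 h minus the ratio at 30 min, called the late change below, had to be below 0 in all 5 lines and -0.3 or lower on the log2 scale as a mean over lines. Each probe also had to be well above background in at least 1 dye on all 30 arrays. Of the 41000 probes, 20371 met the brightness requirement and 119 of those met all of it, which is 0.584%. The mirrored rule for rises kept 218 probes. Without the size limit, 687 bright probes lay below 0 in all 5 lines and 880 lay above it. The members stood for 96 named genes on 105 probes, and 14 probes carried no gene symbol. Just inside the limit lay PPP1CB, at -0.30, and an unnamed transcript, at -0.30. Just outside lay another unnamed transcript at -0.30 and DCBLD2 at -0.30.

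As background, a ratio of 0 means equal RNA in BMP4-treated and vehicle-treated cells. BMP signals are relayed by receptor-activated SMADs that enter the nucleus together with SMAD4, and they are best known for raising the ID genes, which block basic helix-loop-helix transcription factors. MYC, a member, is a transcription factor that drives growth and cell cycle entry and binds the E-box, CACGTG. Several other members replicate DNA or maintain its methylation.

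Promoters are shown for 4 members, 3 because they hold the letters of an E-box and 1, RGS16, because it was the only member called at 1 h. Each runs from 250 bases before to 50 bases after the annotated start, 5′ to 3′ on the gene's strand, from RefSeq on GRCh38.p14. The windows are chr14:75982962-75983261 on the minus strand for TGFB3, chr5:34656078-34656377 on the plus strand for RAI14, chr4:56435566-56435865 on the minus strand for PPAT and chr1:182604340-182604639 on the minus strand for RGS16. Capitals mark CACGTG and the CCAAT box, ATTGG, on either strand. The E-box began at position -20 from the start in TGFB3, -59 in RAI14 and -182 in PPAT, and ATTGG at -71 in RGS16. TGFB3 is a ligand of the same superfamily, RAI14 an actin-binding protein and PPAT the enzyme that commits to purine synthesis. RGS16 is a GTPase activator that shortens G protein signaling.

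TGFB3: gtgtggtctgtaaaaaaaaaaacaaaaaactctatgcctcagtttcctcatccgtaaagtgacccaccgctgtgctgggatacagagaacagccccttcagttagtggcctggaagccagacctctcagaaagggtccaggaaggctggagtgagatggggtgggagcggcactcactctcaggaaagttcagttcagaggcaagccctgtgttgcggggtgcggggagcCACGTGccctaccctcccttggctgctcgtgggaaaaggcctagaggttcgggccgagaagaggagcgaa
RAI14: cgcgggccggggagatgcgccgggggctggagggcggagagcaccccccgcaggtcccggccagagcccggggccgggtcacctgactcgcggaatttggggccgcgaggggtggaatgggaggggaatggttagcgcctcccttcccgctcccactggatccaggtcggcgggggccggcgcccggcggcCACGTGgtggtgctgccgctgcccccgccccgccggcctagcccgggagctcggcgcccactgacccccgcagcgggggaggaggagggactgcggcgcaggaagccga
PPAT: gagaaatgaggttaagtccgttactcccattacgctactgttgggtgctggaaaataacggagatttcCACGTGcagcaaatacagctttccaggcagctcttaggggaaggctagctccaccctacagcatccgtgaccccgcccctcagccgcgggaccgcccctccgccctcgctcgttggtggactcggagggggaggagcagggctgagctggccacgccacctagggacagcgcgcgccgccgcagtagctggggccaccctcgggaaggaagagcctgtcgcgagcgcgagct
RGS16: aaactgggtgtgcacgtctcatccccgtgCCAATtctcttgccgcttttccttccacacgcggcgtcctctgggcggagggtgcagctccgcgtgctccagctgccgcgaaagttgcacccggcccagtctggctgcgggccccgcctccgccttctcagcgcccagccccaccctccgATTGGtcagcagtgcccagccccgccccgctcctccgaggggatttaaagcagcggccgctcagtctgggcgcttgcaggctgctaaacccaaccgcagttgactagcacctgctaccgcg

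The share of member promoters with each motif is given beside that of all genes with a bright probe and was not tested. Of the 78 member genes with a promoter in the table, 8 (10.3%) held CACGTG, beside 912 of 8846 genes with a bright probe (10.3%). GGCGCC, a GC-rich SMAD element, was in 28 member promoters (35.9%) and in 31.1% of all. GTCTAGAC was in 0 of 78 and in 0.124% of all. The GC box GGGCGG was in 73.1% of members and 70.6% of all, and ATTGG in 33.3% and 37.9%. The cyclic AMP element TGACGTCA was in 1 member, DTL, and in 3.35% of all. Each motif was searched on both strands, and the median GC content was 66.5% for the members and 65.3% for all.

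The fall was small and was not called by a test. In the series matrix the member means ran from -1.16 to -0.30 with a median of -0.36, a 1.28-fold decrease, and 10 probes fell by 0.5 or more. After loess normalization of the scanner signals, which removes a trend of the ratio with brightness, the median was -0.27 (1.21-fold), beside 0.02 for all bright probes. Loess and the background offset left 119 of 119 below 0 on the mean over lines but 71 of 119 below 0 in all 5 lines. In the count over all 5 lines, a probe with a missing 30 min or late value in a line was taken as not below 0. Applied to the loess ratios, the rule kept 20 probes, of which 19 were members. Limma with the cell line as a block called 0 of 41000 probes lower late than at 30 min, 0% of the array, at an adjusted p under 0.05. At an unadjusted p under 0.05 it had 666 lower, 79 of them members, which is the contrast that chose them and carries no weight. The lowest adjusted p of a member was 0.0754, for RGS16. All ratios from here on are after loess unless the series matrix is named.

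**Figure D1:**
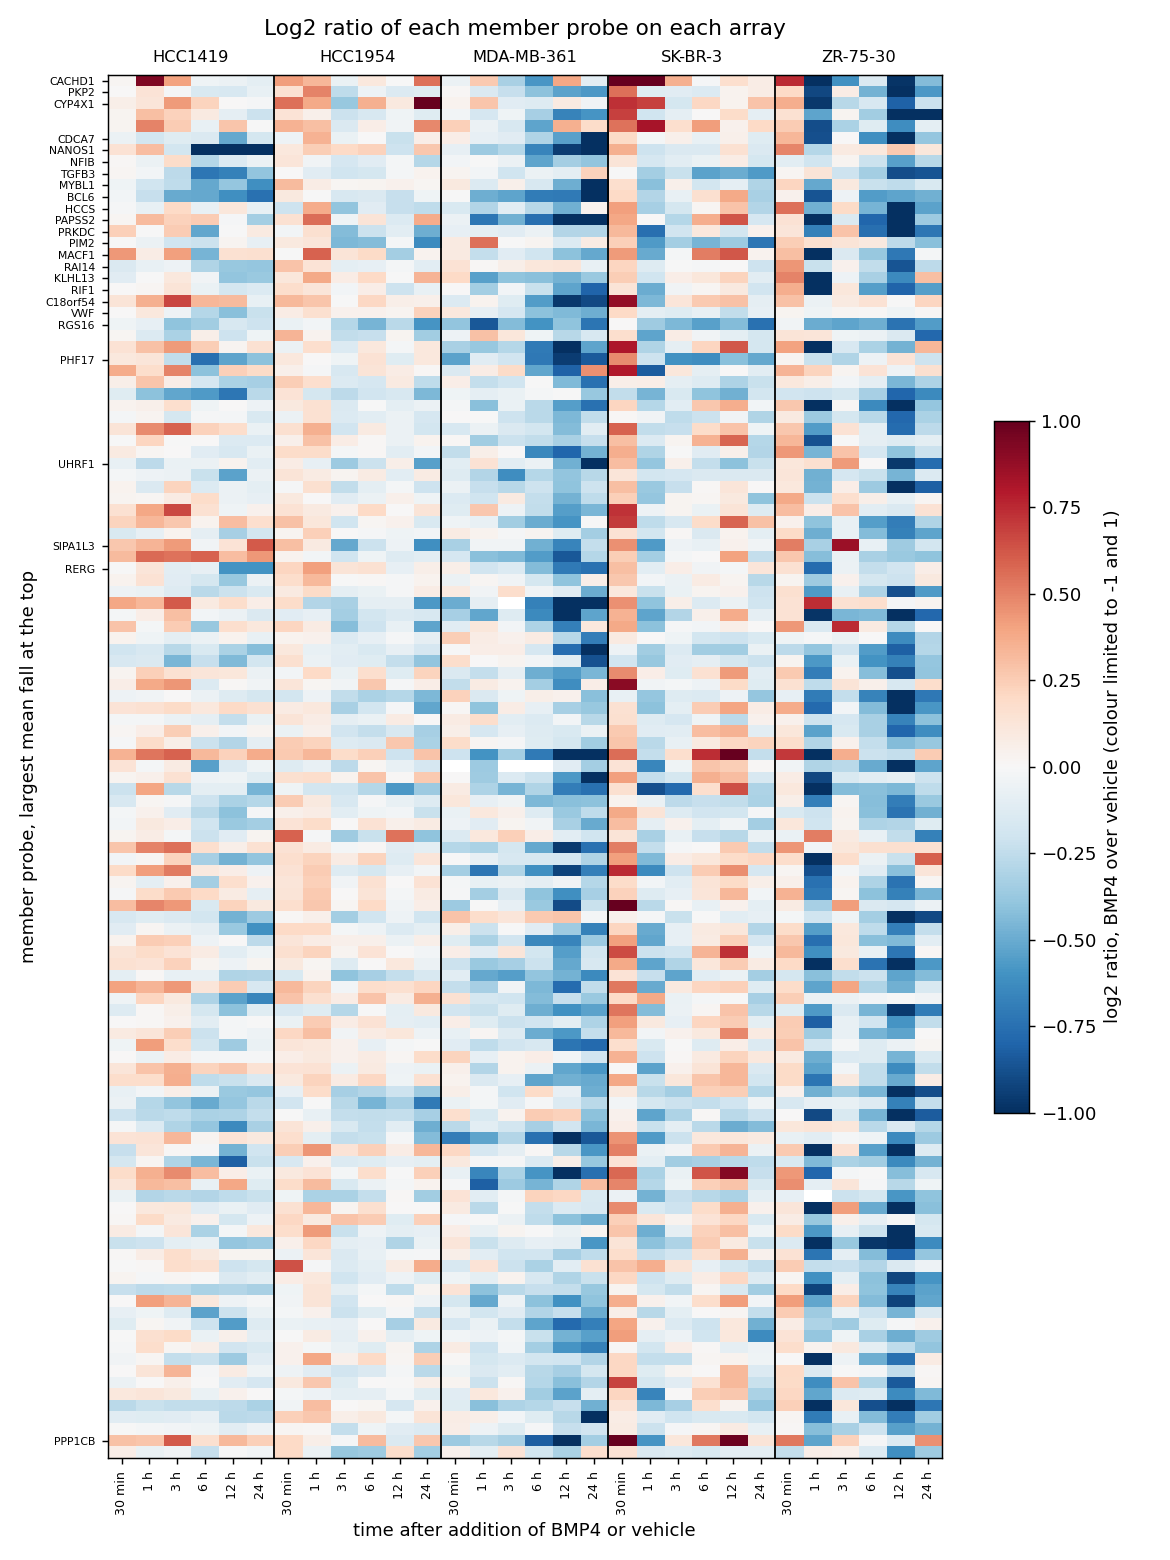
Log2 ratio of BMP4 over vehicle after loess for each of the 119 member probes (rows, largest mean fall in the series matrix at the top) on each of the 30 arrays (columns, by line and time). Gene names are printed for the 25 genes named by rule. Blue is lower with BMP4 and red is higher, and the colour is limited to -1 and 1. ZR-75-30 at 12 h and MDA-MB-361 at 12 and 24 h are the bluest late columns, and SK-BR-3 at 30 min is the reddest.

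The time labels themselves allowed similar counts. When the time labels were permuted within lines 100000 times and the rule was applied to the series matrix again, it kept a median of 51 probes, with 22 at the lower and 126 at the upper quartile and a range from 0 to 2050. The 119 probes with the labels as given lay between the median and the upper quartile. For rises the median was 48 and the upper quartile 121, beside 218 with the labels as given. These are descriptions of how many probes the rule returns and not a test of any gene. With another time point in place of 30 min as the reference, the rule kept 61 probes for 1 h, 34 for 3 h, 44 for 6 h, 29 for 12 h and 161 for 24 h. Only the 1 h reference shared probes with the members, 5 of them. For 3, 6, 12 and 24 h as the reference, the 30 min array entered the mean of the other time points. The members were chosen for a 30 min ratio above their late mean, which works against an overlap, so nothing is read from its absence. With the mean of 30 min and 1 h as the reference the rule kept 36, of which 18 were members (15.1% of the members and 50% of the 36).

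The size of the fall was not the same in each line. The median late change of the members after loess was largest in ZR-75-30, at -0.44, followed by SK-BR-3 at -0.27, MDA-MB-361 at -0.26, HCC1954 at -0.15 and HCC1419 at -0.07. The numbers of members below 0 were 119, 116, 114, 104 and 86, in that order of lines. A UHRF1 probe and the MLL3 probe had missing values in MDA-MB-361 and were counted there as not below 0. In the series matrix, ZR-75-30 held the largest fall of 60 members, MDA-MB-361 of 23, SK-BR-3 of 19, HCC1419 of 10 and HCC1954 of 7.

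The course over time also differed between lines. In MDA-MB-361 the median of the members went down almost steadily, with values of -0.02, -0.12, -0.11, -0.25, -0.42 and -0.38 over the 6 time points. In ZR-75-30 the values were 0.16, -0.49, -0.02, -0.25, -0.63 and -0.29. That line thus had 2 separate dips with a return at 3 h, but its 1 h array lay on a slide of its own. Slide and time cannot be told apart for the first dip. In SK-BR-3 they were 0.27, -0.23, -0.09, 0.02, 0.10 and -0.14. Its late arrays lay on both sides of 0 and its 30 min array was the highest of all 30. HCC1419 went from 0.01, 0.05 and 0.07 at the first 3 time points to -0.08, -0.11 and -0.09 at the last 3. HCC1954 stood at 0.11 and 0.12 at 30 min and 1 h and at -0.11, -0.01, -0.04 and -0.05 from 3 to 24 h. The median of all bright probes stayed between -0.04 and 0.03 on every array, which loess largely sets in advance.

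**Figure D2:**
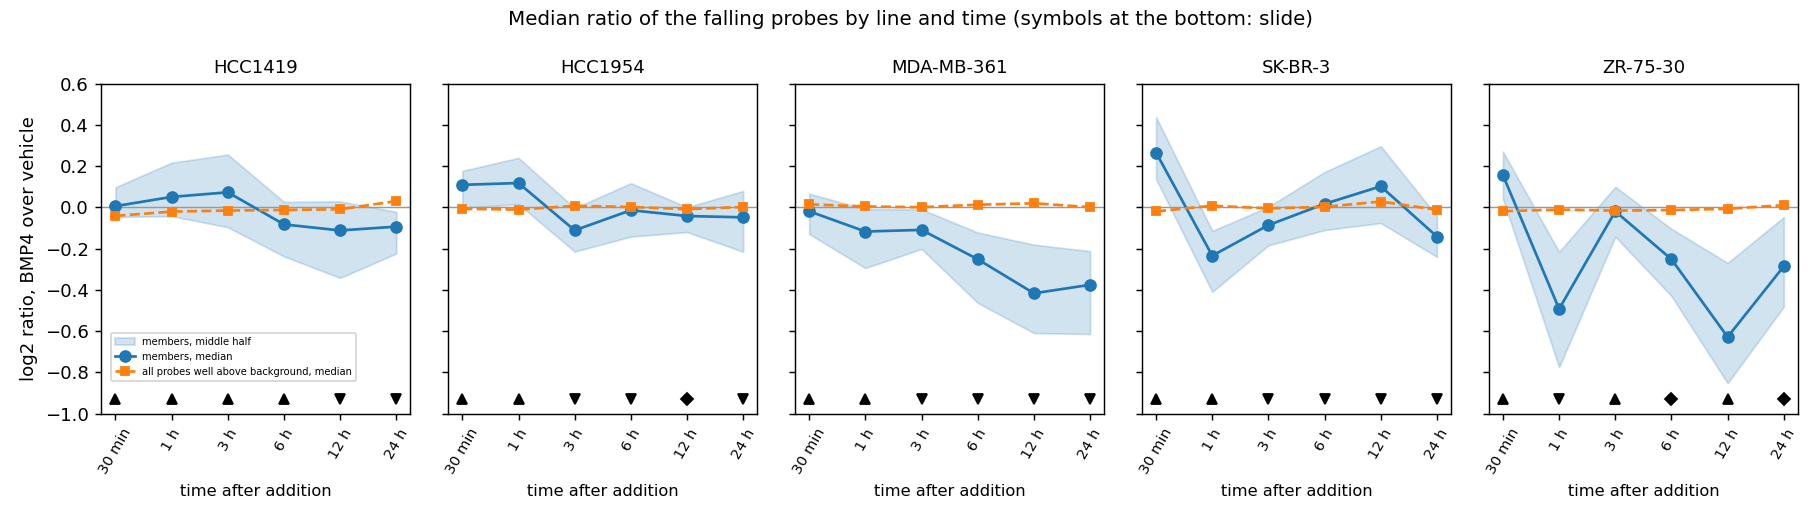
Median log2 ratio of BMP4 over vehicle after loess (y axis) of the 119 member probes (blue, with the middle 50% shaded) and of all 20371 bright probes (orange) at the 6 time points (x axis, categories) in each line. Symbols at the bottom mark arrays of the same slide within a line. The members reach -0.63 in ZR-75-30 at 12 h and 0.27 in SK-BR-3 at 30 min.

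Slides moved with the time points. The 30 arrays lay on 12 slides, and in HCC1954, MDA-MB-361 and SK-BR-3 the 30 min array lay on another slide than every late array, so slide and time cannot be told apart there. In HCC1419 the slide of the 30 min array also held 3 and 6 h, and the median of the members within it was -0.02 with 64 of 119 below 0, whereas 12 and 24 h, on another slide, gave -0.14 with 105 below 0. In ZR-75-30 the slide of the 30 min array also held 3 and 12 h, and the median within it was -0.43 with 118 of 119 below 0. The value for 6 and 24 h, on a further slide, was -0.43. The 1 h array of ZR-75-30 was alone on its slide and was scanned on another day than the 30 min array. With slide as a term in limma the median late change of the members was -0.31. That fit links 30 min to the late arrays only through the shared slides of HCC1419 and ZR-75-30. It cannot separate slide from time in HCC1954, MDA-MB-361 or SK-BR-3.

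Over the 5 lines, most members were above 0 at 30 min and below it late. The median over members of the mean ratio was 0.11, -0.14, -0.04, -0.13, -0.22 and -0.21 over the 6 time points. Of the 119 members, 107 were above 0 at 30 min and 112 were below 0 over the late time points, and 100 were both. For 49 members the 30 min ratio lay farther from 0 than the late mean. The 30 min and late values chose the members, so counts set against either of them are a description only. The mean at 1 h was below that at 30 min for 119 of 119. By 1 h, 94 members had gone down by 50% of their late change or more, but 36 of these were back above that level at 3 h. The level was met by 75, 115, 119 and 116 members from 3 h onward. The lowest mean fell at 12 h for 42 members, at 24 h for 39, at 1 h for 28 and at 6 h for 10.

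The 1 h arrays did not enter the rule. At 1 h 100 of 119 members lay below 0 (84.0%), beside 54.0% of all bright probes. Limma called 1 member lower than 0 at 1 h, RGS16, where 148 of 41000 probes (0.361%) were called lower. This call was lost with the series matrix, the software's log ratio, 1 factor per array, offset 16 or array weights, and without HCC1954, SK-BR-3 or ZR-75-30. At an unadjusted p under 0.05, 20 members were lower and 0 higher, and 3053 of all probes were lower. The 1 h medians were 0.05 in HCC1419 and 0.12 in HCC1954, so the low medians were those of the other 3 lines. Against 0, a probe's dye bias cannot be told apart from its response, as no dyes were swapped.

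The 12 and 24 h arrays were also compared with those of 3 and 6 h. All 4 time points entered the rule through their mean, so the members' values here are a description. In it, 110 of 119 members (92.4%) were lower at 12 and 24 h, with a median of -0.14, beside 47.2% of all bright probes and a median of 0.01. Limma called 0 members and 0 of 41000 probes (0%), and the lowest adjusted p of a member was 0.705. At an unadjusted p under 0.05, 22 members and 771 of all probes were lower. The members with the smallest p were CDCA7L, a MYC-interacting protein, at -0.24 ± 0.06 (SE), and a probe of RERG, a growth-inhibiting small GTPase, at -0.23 ± 0.06.

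The lines were also compared in the mean ratio over the 6 time points, 5 of which the rule used, so nothing about the members is read from their count. Limma's F test called 59 of 119 members (49.6%), beside 7313 of 20369 bright probes (35.9%) and 9086 of 40997 probes (22.2%). The difference between the highest and the lowest line had a median of 0.42 over the members and 0.34 over the bright probes. Without MDA-MB-361 the test called 1 member and 96 of all probes. When loess was replaced by a single factor for each array it called 0 members and 11 of all probes.

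RGS16 had the lowest p of the members. Its probe (chromosome 1, 180834494 to 180834553, hg18) read -0.05, -0.06, -0.40, 0.01 and -0.04 in the 5 lines at 30 min. By 1 h the lines read -0.08, -0.03, -0.85, -0.36 and -0.49, and limma's mean was -0.36 ± 0.09 (SE, adjusted p 0.0416). At 24 h they read -0.21, -0.59, -0.73, -0.74 and -0.56, all below 0, with a mean of -0.57 ± 0.22 (SD, n = 5 lines). The late change was -0.36 ± 0.08 (SE). In HCC1419 and HCC1954 the ratio first left the range near 0 at 3 h, at -0.40 and -0.28. A second RGS16 probe that was no member was below 0 in all 5 lines too, with a mean of -0.26 in the series matrix.

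Of the members in signaling, LRIG1, which restrains ERBB receptors, read -0.01, 0.13, -0.27, 0.06 and 0.11 in the 5 lines at 30 min. Its ratios at 24 h were -0.32, -0.49, -0.46, -0.44 and -0.28, each below that of its line at 30 min. The nearest pair was that of MDA-MB-361, -0.27 and -0.46. At 6 h it lay between -0.39 and -0.24. TGFB3 lay between -0.01 and 0.02 on the 30 min arrays and between -0.26 and -0.20 in every line at 3 h. At 24 h HCC1419, SK-BR-3 and ZR-75-30 read -0.39, -0.56 and -0.86, whereas HCC1954 and MDA-MB-361 read 0.03 and 0.23. IGF1R, the receptor of insulin-like growth factors, read 0.40, 0.32, -0.24, 0.53 and 0.19 at 30 min and -0.16, 0.21, -0.24, -0.12 and -0.15 at 24 h. Its mean of -0.09 ± 0.18 at 24 h was within the spread of the lines. SMAD4, the partner of all receptor-activated SMADs, had a mean of 0.14 ± 0.16 at 30 min and of -0.17 ± 0.23 by 24 h (SD, n = 5 lines), and only ZR-75-30 and MDA-MB-361 were below -0.1 then. The kinases PIM2 and YES1 had mean ratios of -0.35 and -0.34 at 24 h.

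**Figure D3:**
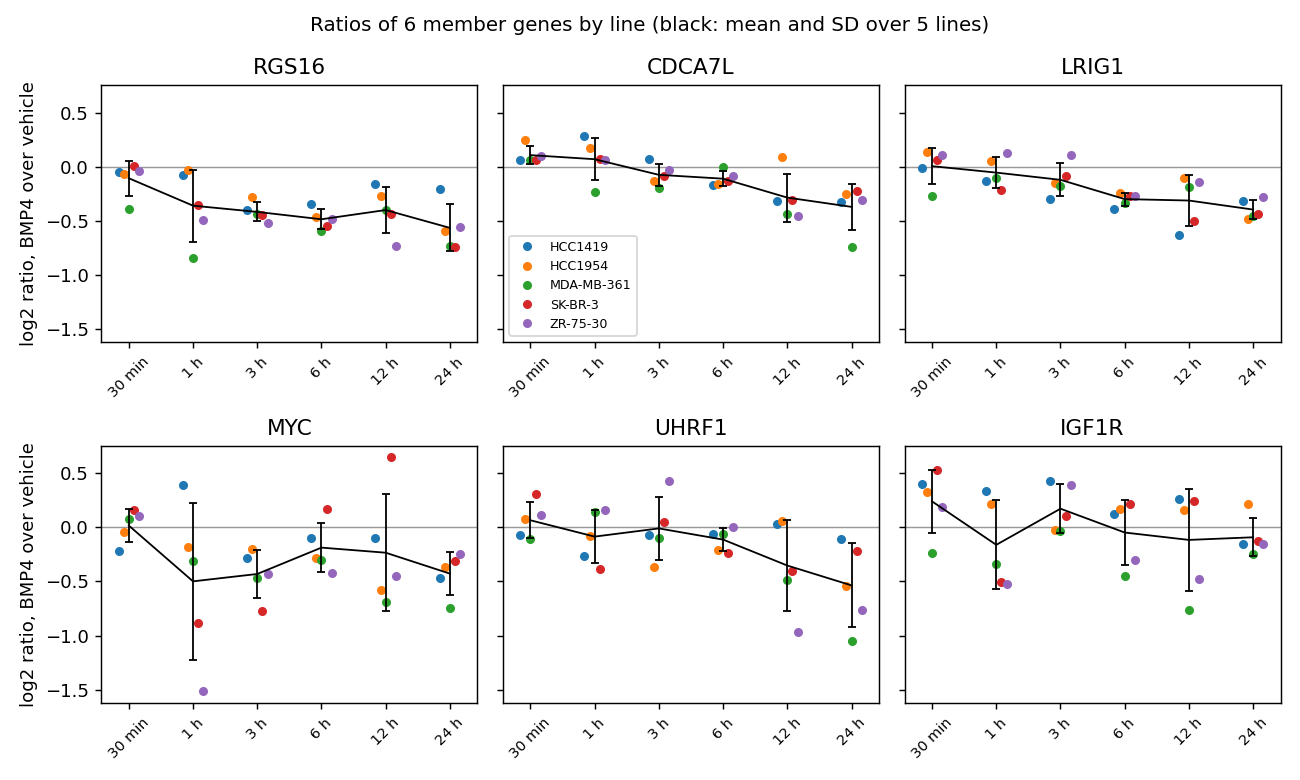
Log2 ratio of BMP4 over vehicle after loess (y axis) of 6 member genes at the 6 time points (x axis, categories), with 1 point per line and the mean and SD over 5 lines in black. All but IGF1R lie below 0 in every line at 24 h (for UHRF1 the dimmer probe is plotted), and MYC is spread from -1.52 to 0.39 at 1 h.

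MYC read -0.22, -0.04, 0.08, 0.16 and 0.10 in the 5 lines at 30 min. At 1 h it read 0.39, -0.18, -0.31, -0.88 and -1.52, and at 24 h -0.47, -0.37, -0.75, -0.31 and -0.25. The fall was thus early and deep in SK-BR-3 and ZR-75-30, and in SK-BR-3 the ratio was 0.65 at 12 h. A second bright MYC probe had a mean late change of -0.06 in the series matrix, from -0.40 to 0.20 over the lines. NOLC1, a nucleolar phosphoprotein, PPAT and XPO5, which exports microRNA precursors, had mean ratios of -0.37, -0.30 and -0.40 at 24 h. Grouped by role after their values were seen, 6 genes of MYC, nucleoli and growth metabolism had a median of 0.04 at 30 min, -0.25 at 1 h and -0.34 at 24 h.

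Of 16 members in DNA replication, chromosomes and cell division, also grouped after their values were seen, the medians were 0.10, -0.17, -0.04, -0.12, -0.24 and -0.27 over the 6 time points. The dimmer of the 2 member probes of UHRF1, which brings the maintenance DNA methyltransferase to replicated DNA, read -0.07, 0.08, -0.10, 0.31 and 0.12 at 30 min and -0.10, -0.54, -1.05, -0.22 and -0.77 at 24 h. Through 6 h its mean stayed between -0.11 and 0.07. The brighter UHRF1 probe read 0.39, 0.18, -0.49, 0.46 and 0.15 at 30 min and 0.07, -0.58, -1.79, -0.20 and 0.03 at 24 h, so HCC1419 and ZR-75-30 were not below 0 on it. DTL, an adaptor of the ubiquitin ligase that clears the licensing factor CDT1, read -2.21 in MDA-MB-361 at 24 h and between -0.42 and -0.07 in the other lines. From 30 min to 24 h it hardly moved in SK-BR-3 (-0.05 to -0.07) and ZR-75-30 (-0.26 to -0.29). HCC1419 went from -0.20 to -0.42 and HCC1954 from 0.11 to -0.17. CDCA7, a target of MYC, read -1.21 in MDA-MB-361 at 24 h and -1.50 in ZR-75-30 at 12 h. CDCA7L moved in every line, from between 0.06 and 0.25 at 30 min to between -0.74 and -0.22 at 24 h. Others in the group were PRKDC, which joins DNA breaks, RIF1, which times replication, DBF4, the activator of the replication kinase CDC7, GINS3, a part of the replicative helicase, SASS6, needed for new centrioles, and APRIN (now PDS5B) and STAG1 of the cohesin complex. Their mean ratios at 24 h lay between -0.35 and -0.05. MYBL1, a MYB family transcription factor, had a mean of -0.57 at 24 h, but the lines ran from -1.81 in MDA-MB-361 to 0.02 in HCC1954.

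Transcription and chromatin regulators formed a group of 11 genes with a median of 0.08 at 30 min and -0.24 at 24 h. BCL6, a transcriptional repressor, read -0.03, 0.09, 0.00, 0.20 and 0.04 at 30 min and, by 24 h, -0.75 in HCC1419, -0.48 in ZR-75-30, -0.32 in SK-BR-3 and -0.05 in HCC1954. MDA-MB-361 was the lowest line at 24 h, and all 5 were below their 30 min value. FOXA1, the pioneer factor of luminal cells, read -1.64 at 1 h and -1.48 at 12 h in ZR-75-30, but -0.27 at 30 min and -0.31 at 24 h in HCC1419, where it hardly moved. PHF17 (now JADE1), a partner of histone acetyltransferases, was the only gene with 3 member probes. Their series matrix means were -0.43, -0.41 and -0.32. NFIB, NANOS1, SIX4, MLL3 (now KMT2C), JMJD1B (now KDM3B), CLOCK, CNOT1 and TNRC6B were the other genes of the group.

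The largest value by the rule was that of CACHD1, a calcium channel related membrane protein, with a mean of -1.16 ± 1.26 (SD, n = 5 lines) in the series matrix. It rested on ZR-75-30, at -3.28, and SK-BR-3, at -1.25, while MDA-MB-361 read -0.14. After loess with the offset of 50, its late change was -0.51 ± 0.20 (SE, limma adjusted p 0.905). PKP2, a desmosome plaque protein, was next with -0.70 ± 0.27 (SD, n = 5 lines) and was lower in each line, from -0.37 in HCC1419 to -1.12 in ZR-75-30. Its second member probe had a mean of -0.35. CYP4X1, a cytochrome P450, had -0.69 ± 0.58, where MDA-MB-361 read -0.14 and ZR-75-30 -1.58. HCCS, which attaches haem to cytochromes c, had -0.48 ± 0.62, with -0.08 in MDA-MB-361 and -1.52 in ZR-75-30. By contrast, TGFB3, MYBL1, RGS16, UHRF1 and RERG had SDs of 0.21, 0.20, 0.13, 0.19 and 0.17 over the lines in the series matrix. KLHL13, MACF1, RAI14, C18orf54, VWF and PAPSS2, a sulphate donor synthase, had means between -0.47 and -0.44.

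**Figure D4:**
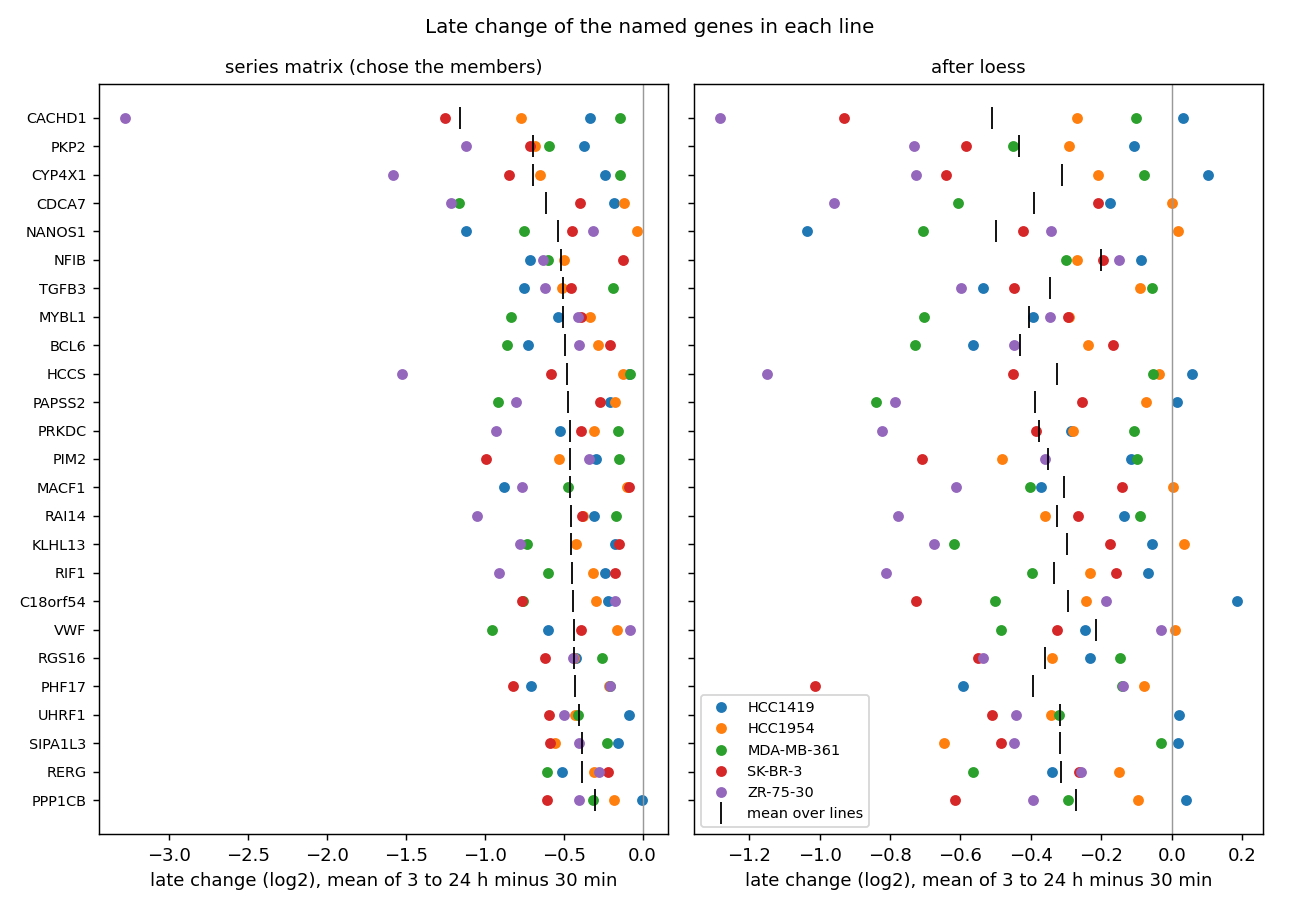
Late change (x axis, log2, mean of 3, 6, 12 and 24 h minus 30 min) of 25 member genes, 1 point per line with the mean as a black tick, in the series matrix that chose the members (left) and after loess (right). The ZR-75-30 point of CACHD1 at -3.28 is the farthest, and after loess several HCC1419 points lie at or above 0.

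Other roles were spread thinly. The 8 adhesion and cytoskeleton genes, among them PKP2, LMO7, NPNT, ROBO1 and CD47, had the highest median at 30 min, 0.19, and one of -0.12 at 24 h. The 14 genes of lipids, sulphate and transport, among them SGMS2, which makes sphingomyelin, and SLC27A2, a fatty acid transporter, had medians of 0.12 and -0.18. The 8 genes of ubiquitin and protein turnover, among them CUL3, TRIM37 and BIRC6, had 0.15 and -0.14. The 14 signaling genes had 0.14 and -0.19, and 19 member genes were placed in no group.

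At 24 h against 0 limma called 11 members lower, 0 higher, where 213 of 41000 probes (0.52%) were called lower. The 24 h arrays were part of the rule, so nothing is read from that count. The 11 were RGS16, LRIG1, CDCA7L, SLC46A1, UHRF1, RERG, SLC27A2, PHF17, DDAH1, GPRC5B and MYBL1, with means between -0.57 and -0.31.

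Other probes of the same genes, which the rule did not keep, mostly had a mean late change below 0 as well. The 96 genes had 104 further probes on the array, of which 66, for 41 genes, were bright. In the series matrix 51 of the 66 (77.3%) had a mean late change below 0, beside 44.8% of all bright probes, and 12 were below 0 in all 5 lines. Their median was -0.10, beside 0.02 for all bright probes. Other probes of USP31 (-0.25 and -0.16), PPAT (-0.28) and RGS16 (-0.26) were below 0 in every line. Of the other SLC46A1 probes, 1 was below 0 in every line (-0.23) and 1 was not (mean 0.02), and a second PSMB7 probe was above 0 in every line, with a mean of 0.17. In all, 15 of the 66 had a mean above 0. The highest means were 0.61 for a probe of HS2ST1, 0.52 for 1 of MLL3 and 0.32 for 1 of TNRC6B, each below 0 in at least 1 line. As these probes did not meet the rule, a smaller fall was largely set in advance. They read the same RNA on the same arrays and are no independent replicates, so their share below 0 is a description only.

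Members were also looked up in lists of known genes. Of 23 lists, 7 held 1 member gene each and none held 2. Among them were MYC in immediate early genes and in cell cycle entry, NOLC1 in ribosome biogenesis, MYBL1 in the oestrogen receptor list, FOXA1 in luminal transcription factors and SMAD4 in BMP receptors and SMADs. The list of DNA replication and S phase held 0 members, although 29 of its 32 genes were below 0 in late change after loess with a median of -0.09. At 24 h its median was -0.36, and limma called 5 of its 43 probes lower at 24 h. The mitosis list had 24 of 30 genes below 0, with medians of -0.05 for the late change and -0.26 at 24 h, where 1 of 33 probes was called lower. In ribosome biogenesis 18 of 30 genes were below 0, with a median of -0.04 for the late change. The BMP targets went up, with 1 of 16 genes below 0 and a median late change of 0.65. For comparison, 41.8% of all bright probes were below 0 in late change, with a median of 0.02. At 24 h against 0, limma called 0.52% of all probes lower. Of the other lists, cytosolic ribosomal proteins (13 of 25 genes below 0), amino acid supply (11 of 23), RNA splicing factors (15 of 25), epithelial adhesion and keratins (9 of 16), ERBB receptors and ligands (1 of 6) and histones (0 of 16) held no member. Heat shock, ER stress, glycolysis, interferon, NF-kappaB, WNT and mitochondrial respiration held none either, and their median late changes lay between -0.02 and 0.09.

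The single channels showed where the ratio moved. From 30 min to the late mean, the median member signal changed by 0.04 in the vehicle channel, with 47 of 119 below 0, and by -0.22 in the BMP4 channel, with 113 below 0. The lines differed more than that. In HCC1954 the members went up in both channels, by 0.38 with vehicle and 0.24 with BMP4, and in SK-BR-3 they went down in both, by -0.36 and -0.64. In ZR-75-30 they rose by 0.31 with vehicle and fell by 0.16 with BMP4. MDA-MB-361 had -0.03 and -0.30, and HCC1419 -0.16 and -0.26. Over all bright probes no median moved by more than 0.05, which the normalization of the arrays to each other largely sets in advance. These channel values compare arrays directly and are open to array and dye effects.

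The genes were long and the probes dim. For 104 members with a length in RefSeq (GRCh38.p14), the median genomic length was 72.7 kb, beside 29.2 kb for the 78.1% of bright probes that had one, and 38.5% of the members but 16.2% of all were over 100 kb. The median length was 26.5 kb for the probes that rose by the mirrored rule. Fewer than 80% of all bright probes were matched, so this is a description only. Across bright probes, Spearman's correlation of the ratio with gene length varied over the arrays, from -0.25 in ZR-75-30 at 1 h to 0.27 in SK-BR-3 at 12 h. In SK-BR-3 it was 0.18 at 30 min and -0.20 at 1 h. The correlations are across genes, which share array and RNA. The median log2 brightness was 8.93 for the members and 9.94 for all bright probes. The part of length, RNA quality and brightness in the fall was not tested.

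**Figure D5:**
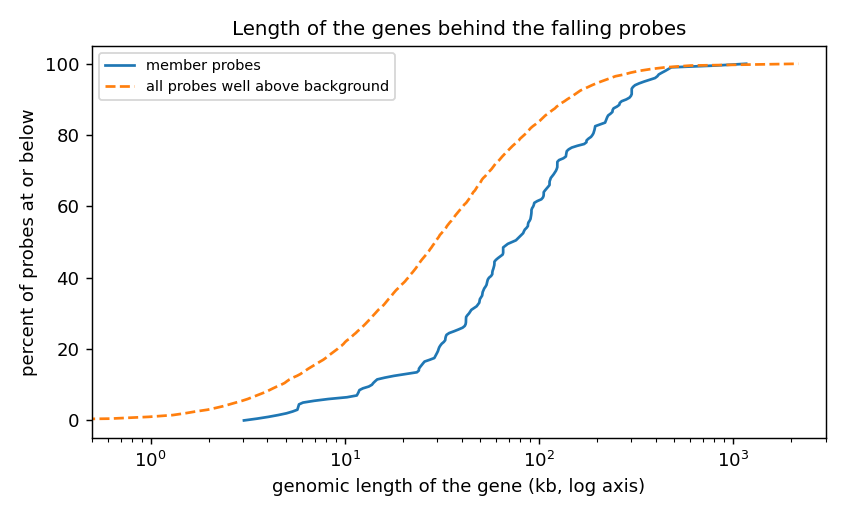
Percent of probes (y axis) whose gene has at most the genomic length on the x axis (kb, log axis), for the 104 member probes with a length (solid) and for all bright probes with one (dashed). The member curve lies to the right, with medians of 72.7 and 29.2 kb.

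The lines carried their epithelial markers. KRT8, KRT18, KRT19, TACSTD1 (now EPCAM) and ERBB2 were well above background in the vehicle channel on 30 of 30 arrays. CDH1 was so on 24, and on 0 of 6 in SK-BR-3. PTPRC was so on 0 arrays and COL1A2 on 1. CD3E, a T cell marker, was so on 30 and COL1A1 on 28, VIM on 20 and PECAM1 on the 6 of HCC1954. Their part in the results was not tested. Per array, 56.3% to 70.8% of the probes were well above background in a channel.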

How the data were processed

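Two-colour Agilent arrays of 5 cell lines at 6 time points were used. Per the file headers, the deposited mean signals and local backgrounds are raw intensity values, and the processed signals are intensity values after background subtraction and dye normalization by Feature Extraction, from which the deposited log10 ratio is taken. The authors' series matrix holds log2 ratios with each array's median at 0. It correlated with the log2 ratio of the processed signals with an r that rounded to 1 on every array. The deposited flags give 0 or 1 for well above background and are named other in unit. Of the 41000 probes it held 40997, with 45430 missing values.

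The members and the gene lists were chosen with earlier results of these data known. Signals were background-corrected by normexp (offset 50) and normalized by loess in limma 3.58.1 (R 4.3.3), control spots having weight 0, outlier spots removed and spots averaged per probe. Tests were limma fits across all probes with Benjamini-Hochberg adjustment, two-sided, called at an adjusted p under 0.05. The code was tested on simulated data. The late change and the comparison of 12 and 24 h with 3 and 6 h had the cell line as a block, since each replicate number is 1 line. As a check, each array's residual from its time-point average was correlated with those of the same line, giving a mean r of 0.232 over 75 pairs, 44 of them above 0.1. Against 0, no block was used. Nothing says that the pooled cultures were repeated, so p-values measure the spread between lines or, in the F test between lines, between the arrays of a line.

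Named genes were the 20 with the lowest mean by the rule, the member genes of any list with 2 or more, up to 6 genes with 2 or more member probes, those next to the limit, and those called at 1 h. Others were chosen after their values were seen. The number of arrays limits the precision. Alternatives were other normalizations, filters, reference times and terms, and leaving out each line. Slide was added after seeing the data. A result for 1 gene is not reported here.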

Additional observations from a re-analysis of the deposited data

Results flagged for a closer look

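In MYBL1 the late change after loess was -0.70 in MDA-MB-361 and stood apart from the other 4 lines, the gap to the nearest being 0.755 of the range over the lines. Of 32 groups of 5 values looked at, this was the only one that stood apart, and chance gives about 1 in 20.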

How the results depend on the processing

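The rule chose the members by the late change on these same arrays, so its direction carries no weight here. The median late change of the members was below 0 in every fit, from -0.37 with the software's log ratio to -0.16 with 1 factor per array, beside -0.27. Over 4 lines it was between -0.32 (without HCC1419) and -0.21 (without ZR-75-30). The number of members depended more on the settings. It was 20 with loess ratios, 335 with a limit of -0.2, 10 with -0.5, 331 with no filter on dim probes, 61, 34, 44 and 29 with 1, 3, 6 and 12 h as the reference, and 36 with the mean of 30 min and 1 h. It was 112 (without ZR-75-30), 164 (without MDA-MB-361), 226 (without HCC1419), 233 (without HCC1954) and 288 (without SK-BR-3) over 4 lines. With 4 lines the rule has 1 condition fewer by construction. For the other settings the cause was not tested. Falls of members called in limma were 0, but 1 with the series matrix, 3 with the software's log ratio and 2 with array weights, and 0 with no replicate block. Without each line in turn they were 0. At 12 and 24 h against 3 and 6 h, 0 members were called in every fit, with or without the replicate block. At 1 h against 0, 1 member was called, also with the replicate block as a random effect, but 0 with the series matrix, the software's log ratio, 1 factor per array, offset 16 or array weights, and 0 without HCC1954, SK-BR-3 or ZR-75-30 and 1 without the other lines. Between lines, 59 members were called, but 0 with 1 factor per array, and 1 (without MDA-MB-361) to 60 (without SK-BR-3) with 4 lines, with 36 without HCC1419. The calls over all probes, 9086, moved alike, to 11, 96, 10128 and 5387. The scan day term was not run for the 1 h and line comparisons. The fits of 25 named genes kept their direction in 400 of 400 alternatives, and 3 became called, RGS16 with the series matrix and the software's log ratio and BCL6 with array weights. As the rule chose these genes on the same contrast and arrays, their kept direction carries no weight. An offset of 50 shrinks the ratios of dim probes. With offset 16 the median late change of the members was -0.29, and the part of the offset in the falls was not tested.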
